A study of Mus musculus with 25 samples.

Results

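The genes described here encode the translocases that bring proteins into mitochondria. They were taken from the deposited table of RNA-seq values by symbol, as all genes whose name starts with Timm or Tomm followed by a digit. Of the 23116 genes in the table, 25 met this rule, 14 Timm genes of the inner membrane and intermembrane space and 11 Tomm genes of the outer membrane and cytosol. RNA was measured in HSLAM cells, the hematopoietic stem cell population sorted from adult mouse bone marrow as LSK+ CD150+ CD48-. All mice were on the C57BL/6 strain and carried loxP sites around exon 1 of both Znf143 alleles. The 3 Znf143 f/f libraries came from males without Cre (Rosa26ERT2-Cre-), and the 3 Znf143 -/- libraries came from males with the tamoxifen-activated Cre (Rosa26ERT2-Cre+). Both groups received tamoxifen. The study describes the mice as pairs of littermates, without stating which libraries form a pair. Rosa26 drives Cre in most cell types, so deletion was not limited to blood, and the Znf143 f/f mice lack Cre, so that effects of the recombinase and of the deletion cannot be told apart. ZNF143 is a zinc finger protein that binds promoters, and the comparison asks which genes change when it is removed from stem cells.

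Nearly all mitochondrial proteins are made in the cytosol and imported. The TOM complex is the common entry gate of the outer membrane: receptors recognize a precursor and pass it to the Tomm40 channel. In the inner membrane, the TIM23 complex takes up precursors with a cleavable presequence and, with its motor, pulls them into the matrix, while the TIM22 complex inserts carrier proteins with several membrane spans. Small TIM proteins form chaperone rings in the intermembrane space that escort hydrophobic precursors from TOM to the inner or outer membrane. Hematopoietic stem cells are known for low reliance on mitochondrial respiration at rest.

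The libraries held 38643255 to 57895793 fragments on genes. Values are given as rescaled FPKM, which are the deposited fragments per kilobase of gene, scaled to library size, divided by 1 median-of-ratios factor per library (0.906 to 1.20). On this scale Zfp143, the mouse symbol of Znf143, was at 3.09, 4.45 and 3.68 in Znf143 f/f and at 0.156, 0.299 and 0.272 in Znf143 -/- libraries. Its log2 fold change was -3.50, with a standard error of 0.239 and an adjusted p of 0.00100 (limma); 24 to 55 fragments lay on the gene in the Znf143 -/- libraries. GEO's labels name the deleted genotype a CTCF knockout, and Ctcf had a log2 fold change of -0.13 (adjusted p = 0.468 from limma). In each genotype 2 libraries were nearly identical. Replicates 1 and 3 of Znf143 f/f, and replicates 2 and 3 of Znf143 -/-, differed by a chi-square per degree of freedom of 5.15 and 7.05 over genes, whereas every other pair of libraries differed by 80.9 to 200. Both values exceed sampling noise, and the 6 libraries were treated as separate samples. All 8 stem cell markers on the list (Kit, Ly6a, Slamf1, Mecom, Hlf, Procr, Fgd5 and Ptprc) were expressed, and their summed level was 354 to 419 FPKM in Znf143 f/f and 656 to 711 FPKM in Znf143 -/- libraries, most of it from Ly6a (240 to 290 and 553 to 605 FPKM). Of the other members of this list, Kit, Mecom and Hlf were lower without overlap. Kit was at 19.5 to 22.2 FPKM and 13.5 to 16.9 FPKM, Mecom at 9.06 to 9.38 FPKM and 6.04 to 6.79 FPKM. Hlf was at 22.0 to 27.4 FPKM and 18.2 to 18.8 FPKM. Slamf1 was higher without overlap, at 5.16 to 7.63 FPKM and 7.91 to 9.07 FPKM, while Procr, Fgd5 and Ptprc overlapped between genotypes. The markers of B and T cells stayed below 1 FPKM in every library. The summed level of 5 neutrophil and monocyte markers (Elane, Mpo, S100a8, Ly6g and Ly6c2) was 20.4 to 41.1 in Znf143 f/f and 72.6 to 83.9 in Znf143 -/- libraries, and Cd48, which the sort excludes, was at 9.61 to 11.1 and 19.7 to 20.5. The 2 megakaryocyte markers (Pf4 and Ppbp) summed to 397 to 483 and 509 to 831 FPKM. The part of these differences in the results below was not tested. In bulk RNA, a smaller share of one cell type and less RNA per cell cannot be told apart.

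Of the Timm and Tomm genes, Timm21 alone passed the test. It fell in Znf143 -/- cells to 47.1% of its Znf143 f/f level. Timm13, a small TIM protein, was at 57.7% of its Znf143 f/f level and narrowly missed the threshold. All 25 members passed the filter of a mean of at least 0.1 FPKM. Of the 14 Timm genes, 1 had an adjusted p below 0.05 and was lower, and 0 were higher; of the 11 Tomm genes, 0 passed in either direction (limma with Benjamini-Hochberg adjustment over all 19293 genes tested). At an unadjusted p below 0.05 there were 4 Timm genes and 1 Tomm gene, against 24.2% of all genes tested. Over all genes tested, 5.98% were called in either direction and 2.99% lower, so the share of members called is close to the background. The median log2 fold change was 0.01 over the Timm genes, 0.05 over the Tomm genes and 0.01 over all genes tested. The fold change lay within 0.15 on the log2 scale for 10 of the 14 Timm and 9 of the 11 Tomm genes. Over all genes tested this held for 6130 of 19293. The 95% interval lay within 0.5 in both directions for 17 of the 25 members, and for the other 8 a change of that size was not excluded. Of all genes tested, 4707 had an interval within 0.5. A mean of at least 1 FPKM was reached by 22 of the 25 members and by 12546 of the 19293 genes. Summed over the Timm genes, the level ranged from 997 to 1288 FPKM in the 3 controls and from 910 to 1158 FPKM after deletion. The sums of the Tomm genes, 849 to 1130 and 870 to 1231 FPKM, overlapped as well.

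**Figure D1:**
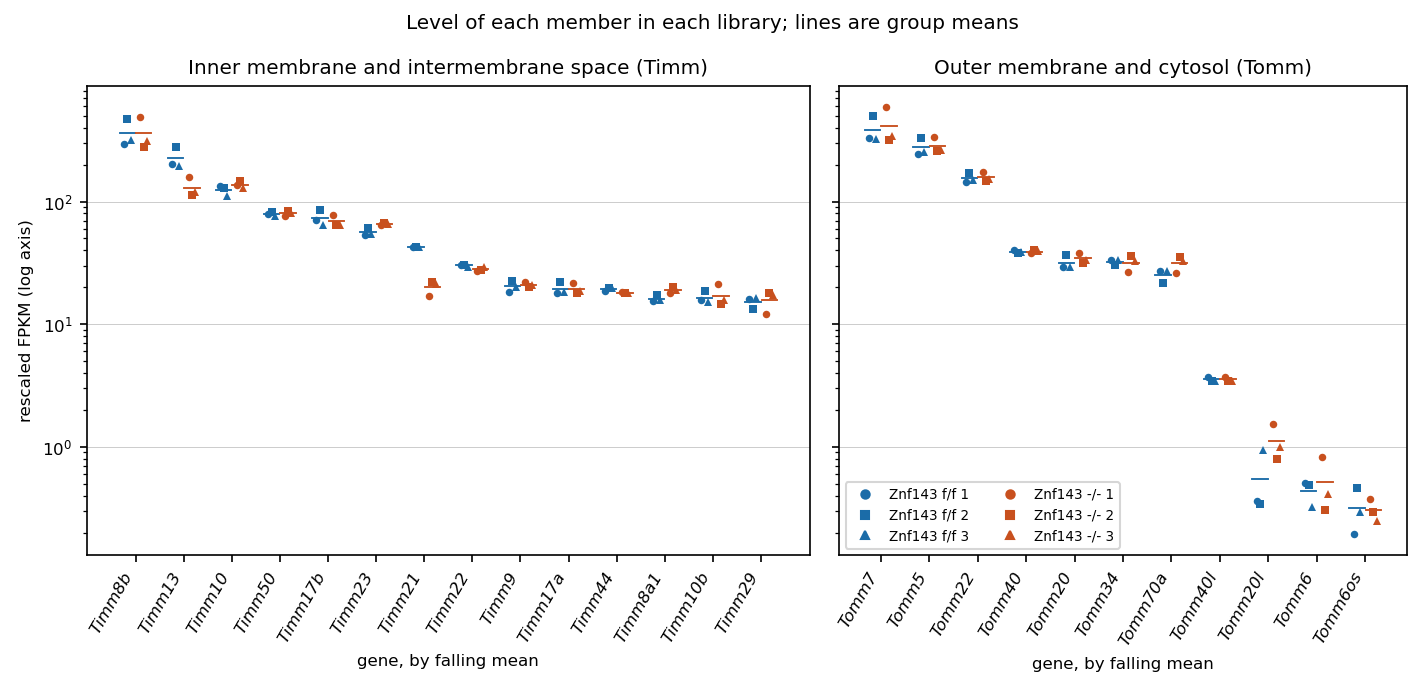
Rescaled FPKM on a log axis of each Timm gene (left) and each Tomm gene (right) in 3 Znf143 f/f (blue) and 3 Znf143 -/- libraries (orange), with the symbol giving the replicate number and short lines the group means. The 3 Znf143 -/- points of Timm21 and of Timm13 lie below all Znf143 f/f points, while most other members overlap; Tomm6, Tomm6os and Tomm20l lie near or below 1 FPKM.

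Timm21 is the subunit of the TIM23 complex that reaches into the intermembrane space, where it contacts the TOM complex, and it also helps newly imported subunits into respiratory chain assembly. Its level was 42.3, 42.8 and 42.7 FPKM in Znf143 f/f and 17.1, 22.1 and 21.1 FPKM in Znf143 -/- libraries. The SD of the control libraries was 0.261 FPKM, less than counting error alone would give at their fragment numbers, so it understates their spread. Every Znf143 -/- library lay well below the controls. The log2 fold change was -1.09 (standard error 0.110, 95% interval -1.35 to -0.83, adjusted p = 0.00460 from limma). The values rest on 992 to 2759 fragments per library. The exact two-sided permutation test gave p = 0.1, the smallest that 3 against 3 libraries allow. Within the near-identical libraries alone (Znf143 -/- replicates 2 and 3 against Znf143 f/f replicates 1 and 3) the log2 difference was -0.98, and between the 2 remaining libraries it was -1.32. When each near-identical pair was averaged and counted once, the log2 fold change was -1.15 and the adjusted p rose to 0.0993 (limma, 2 against 2), a setting in which 0.243% of all genes were called. The gene lies on chromosome 18 of GRCm38 from 84946191 to 84951524, on the minus strand. Fbxo15 starts on the opposite strand 592 bases from its start. No exonic base is shared with another annotated gene, and 0.737% of the 76-base stretches of its transcripts recur in transcripts of another gene. The table gives it a length of 1315 bases, against 3722 exonic bases in GENCODE release M21, so its level relative to other genes depends on the annotation, whereas the length cancels in the comparison between genotypes.

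None of the other 5 members of the TIM23 machinery passed the test. Timm23 itself, the channel subunit, was at 53.5, 61.2 and 54.6 FPKM in Znf143 f/f and at 64.1, 66.6 and 66.0 FPKM in Znf143 -/- libraries. These groups did not overlap either, with Znf143 -/- above, yet the log2 fold change of 0.22 (95% interval 0.02 to 0.42) had an adjusted p of 0.177 (limma). For Timm23, 51.9% of the 76-base stretches also occur in transcripts of 8 other genes, Gm10273 and Gm10171 among them, so its value is uncertain. Timm50, the receptor that hands presequences to the channel, was at 79.0 ± 2.35 and 80.0 ± 3.85 FPKM (SD, n = 3 each). Timm44, which tethers the import motor to the channel, was at 19.4 ± 0.601 and 18.0 ± 0.268 FPKM (SD, n = 3 each); the libraries did not overlap, but the log2 fold change was only -0.11 (95% interval -0.28 to 0.06). Timm17a and Timm17b are paralogous core subunits. Timm17b was the more highly expressed, at 73.3 ± 10.8 and 68.8 ± 7.09 FPKM, against 19.4 ± 2.27 and 19.5 ± 1.91 FPKM for Timm17a (SD, n = 3 each), and their log2 fold changes were -0.09 and 0.01.

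The carrier translocase was measured through Timm22, its membrane core, Timm29, a subunit that holds the complex together, and Timm10b, the small TIM protein docked on it. Timm22 was at 30.2, 30.6 and 29.4 FPKM in Znf143 f/f and at 27.3, 27.7 and 29.0 FPKM in Znf143 -/- libraries. The Znf143 -/- values all lay below, by a log2 fold change of -0.10 (95% interval -0.27 to 0.07, adjusted p = 0.428 from limma). Timm29 was the lowest Timm gene, at 16.1, 13.4 and 16.5 FPKM in Znf143 f/f and 12.1, 18.0 and 17.4 FPKM in Znf143 -/- libraries, with overlapping groups and a log2 fold change of 0.03 (95% interval -0.38 to 0.44). Timm10b overlapped as well, at 16.5 ± 1.81 and 17.1 ± 3.49 FPKM (SD, n = 3 each), and shares 22.1% of its exonic bases with other genes, Arfip2 among them.

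Of the 5 small TIM proteins, Timm13 had the largest difference and none passed the test. Timm13 and Timm8a1 or Timm8b assemble into the ring that carries precursors such as Timm23 itself. Timm13, named after its values were seen because it falls outside the rule for named genes, was at 202, 277 and 196 FPKM in Znf143 f/f and at 159, 112 and 119 FPKM in Znf143 -/- libraries. Again the groups did not overlap, but the spread within each was wide: Znf143 f/f replicate 2 and Znf143 -/- replicate 1 were each the highest of their genotype. Its log2 fold change was -0.79 (standard error 0.188, 95% interval -1.24 to -0.34), with an unadjusted p of 0.00439 and an adjusted p of 0.0594 (limma). The division into near-identical and remaining libraries was added as a covariate after the data were seen. The fold change was then the same, -0.79, and the adjusted p was 0.000932 (limma), in a fit that called 20.0% of all genes. That fit takes much of its error from the small differences inside the near-identical pairs, so its p can be too low. With each of these pairs averaged, the adjusted p was 0.379 (limma, 2 against 2). The log2 difference was -0.79 within the near-identical libraries and -0.80 between the others. Over all alternatives the adjusted p of Timm13 ranged from 0.000932 to 0.379, and 4 of 18 put it below the threshold.

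Neither ring partner of Timm13 passed the test. Timm8a1 was at 15.4, 17.2 and 15.7 FPKM in Znf143 f/f and at 17.9, 20.2 and 19.1 FPKM in Znf143 -/- libraries. The Znf143 -/- libraries were all higher, with a log2 fold change of 0.24 (95% interval 0.03 to 0.45, adjusted p = 0.157 from limma), and 39.9% of its 76-base stretches also occur in Gm9797. Timm8b, the highest Timm gene, was at 295, 467 and 317 FPKM in Znf143 f/f and 488, 278 and 310 FPKM in Znf143 -/- libraries. Its log2 fold change was -0.02, and its 95% interval of -0.65 to 0.61 left room for changes of considerable size in either direction. It shares 15.6% of its exonic bases with Nkapd1, and Timm13 shares 3.14% with Tmprss9. Timm9 and Timm10 form the other ring, which escorts carrier proteins. Timm9 was at 18.3 to 22.7 FPKM in the controls and at 20.0 to 22.2 FPKM after deletion, and Timm10 was at 124 ± 12.6 and 137 ± 8.78 FPKM (SD, n = 3 each). Their log2 fold changes were 0.05 and 0.15. Together, 4 of the 14 Timm genes (Timm21, Timm13, Timm44 and Timm22) had all Znf143 -/- libraries below all Znf143 f/f libraries, and 2 (Timm23 and Timm8a1) had them all above, against 15.3% and 15.4% of all genes tested.

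**Figure D2:**
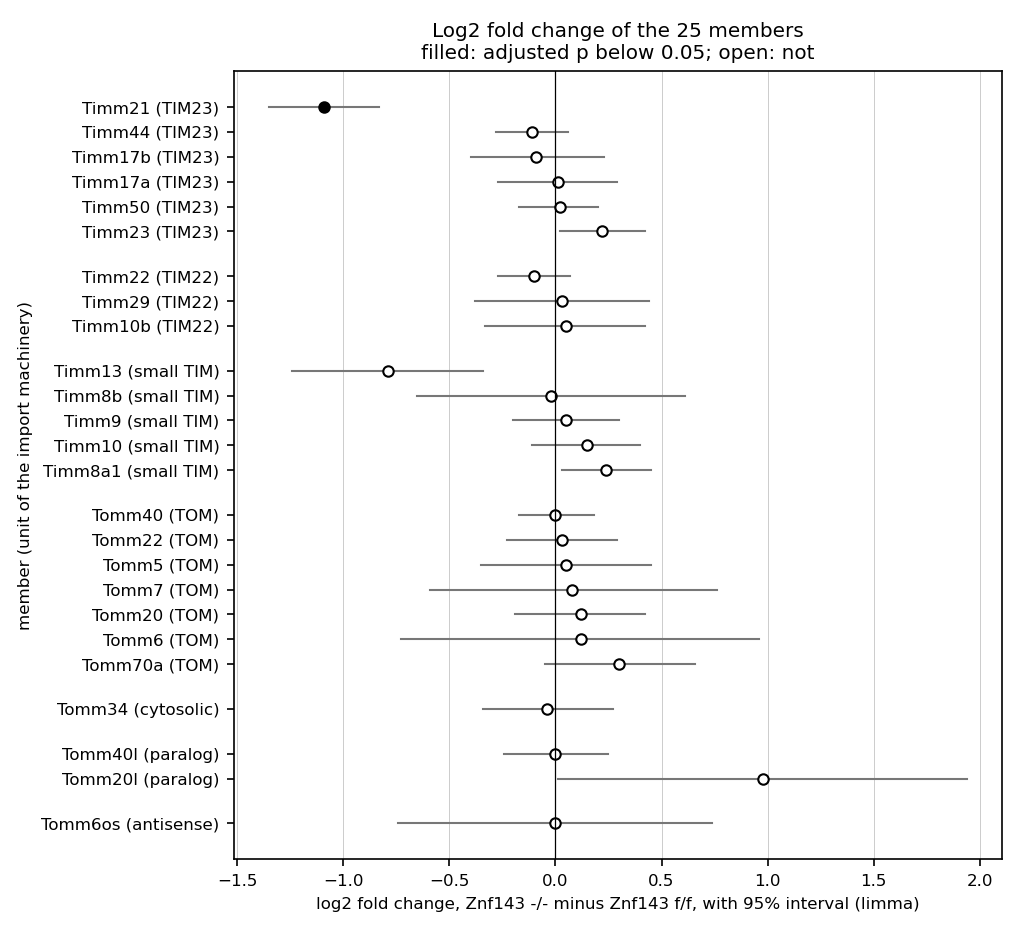
Log2 fold change (Znf143 -/- minus Znf143 f/f) of the 25 members with 95% intervals from limma, grouped by the unit of the import machinery; filled points have an adjusted p below 0.05. Timm21 at -1.09 is the filled point, and Timm13 at -0.79 has the next lowest value. The widest intervals belong to Tomm20l, Tomm6 and Tomm6os.

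None of the 7 subunits of the TOM complex passed the test, and their log2 fold changes reached from 0.00 to 0.30. Tomm40, the channel, was at 40.5, 37.9 and 38.7 FPKM in Znf143 f/f and at 38.2, 40.0 and 39.2 FPKM in Znf143 -/- libraries, with a log2 fold change of 0.00 and the narrow 95% interval of -0.17 to 0.18. Tomm22, the central receptor and organizer, was at 155 ± 14.3 and 158 ± 12.8 FPKM (SD, n = 3 each). Tomm7, a small subunit that modulates assembly of the complex and the highest Tomm gene, was at 327, 496 and 326 FPKM in Znf143 f/f and at 586, 318 and 339 FPKM in Znf143 -/- libraries. One library of each genotype was far above its group mates, so that the 95% interval of Tomm7 spanned -0.59 to 0.76 around a log2 fold change of 0.08. Tomm5, another small subunit, was at 276 ± 48.5 and 285 ± 44.6 FPKM (SD, n = 3 each).

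Of the receptors, Tomm20, which binds presequences, was at 31.8 ± 4.48 and 34.4 ± 3.48 FPKM (SD, n = 3 each). Tomm70a, which receives carrier proteins with their chaperones, had the largest difference of the TOM subunits. It was at 27.3, 21.8 and 27.1 FPKM in Znf143 f/f and at 26.1, 35.5 and 32.8 FPKM in Znf143 -/- libraries, so the groups overlapped. The log2 fold change was 0.30 (95% interval -0.05 to 0.66, adjusted p = 0.267 from limma). It passed with the library division as a covariate (log2 fold change 0.30, adjusted p = 0.0168 from limma), a fit with the limit given for Timm13. It passed in none of the 17 other alternatives, among which the log2 fold change was 0.20 without Znf143 f/f replicate 2.

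The remaining Tomm genes are not subunits of the gate or were barely measured. Tomm34, a cytosolic cochaperone, was at 32.3 ± 1.87 and 31.7 ± 4.78 FPKM (SD, n = 3 each). Tomm40l, a paralog of the channel, was at 3.55 ± 0.151 and 3.56 ± 0.153 FPKM, but 64.3% of its exonic bases are shared with Nr1i3. Tomm20l, a paralog of Tomm20, was at 0.363, 0.340 and 0.948 FPKM in Znf143 f/f and 1.54, 0.795 and 1.00 FPKM in Znf143 -/- libraries, from 10 to 49 fragments. These groups overlapped, and the log2 fold change of 0.98 had a 95% interval of 0.01 to 1.94 and an adjusted p of 0.203 (limma). Tomm6, the third small TOM subunit, was listed at 0.307 to 0.821 FPKM from 16 to 41 fragments. It shares 84.2% of its exonic bases with Usp49, Tomm6os and Gm21981, a share that counting without strand cannot divide, so its low value is uncertain. The lowest Tomm gene was Tomm6os, the antisense RNA of Tomm6, at 0.195, 0.464 and 0.294 FPKM in Znf143 f/f and 0.377, 0.292 and 0.251 FPKM in Znf143 -/- libraries, from 22 to 67 fragments.

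Promoter windows from RefSeq (250 bases before to 50 after the start, GRCm38.p6) were found for 22 of the 25 members; those of Timm21, Tomm7 and Tomm40l were not analysed here. The windows were searched on both strands for the ZNF143 core CCCAGNATG, its flanking module ACTACAA, the NRF1 motif GCATGCGC and the ETS motif CCGGAAGTG, which do not overlap in these windows. The core was found as an exact match in 0 of the 22 members, against 2.04% of 32851 windows of all genes and 2.32% of the windows of genes in the table. Sites that differ from the core by some letters were not searched for, so this result does not exclude them. ACTACAA was in Timm22 and Timm8a1 (3.24% of all windows and 3.71% of those of genes in the table), GCATGCGC in Timm13 (2.71% and 4.47%), and CCGGAAGTG in Timm10, Timm23, Timm29 and Tomm70a (2.03% and 3.61%). A further run of letters, CTGGGAANT, was chosen after the promoters of Timm13 and Timm22 had been read. It stands in Timm13, Timm22 and Tomm34 and in 2.99% of all windows (3.12% of those of genes in the table). The windows of Timm13 (chr10:80900920-80901219, minus strand) and Timm22 (chr11:76406675-76406974, plus strand) are shown because their Znf143 -/- libraries all lay below the controls and both hold these letters. Capitals mark CTGGGAANT and ACTACAA, and the start is the 251st base.
Timm13: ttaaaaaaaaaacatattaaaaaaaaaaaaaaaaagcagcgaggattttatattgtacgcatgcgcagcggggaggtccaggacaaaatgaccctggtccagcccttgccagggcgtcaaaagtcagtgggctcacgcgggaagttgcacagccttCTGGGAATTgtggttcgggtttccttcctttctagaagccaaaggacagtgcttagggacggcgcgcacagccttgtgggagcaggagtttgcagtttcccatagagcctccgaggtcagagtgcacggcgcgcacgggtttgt
Timm22: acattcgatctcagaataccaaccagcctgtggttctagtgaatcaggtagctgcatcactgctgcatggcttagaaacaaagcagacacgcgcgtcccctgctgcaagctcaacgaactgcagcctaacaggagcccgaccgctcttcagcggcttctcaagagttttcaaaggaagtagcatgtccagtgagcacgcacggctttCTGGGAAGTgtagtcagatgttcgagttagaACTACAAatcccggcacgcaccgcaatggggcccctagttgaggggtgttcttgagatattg
In Timm13, CTGGGAANT begins 94 bases before the start, and GCATGCGC begins 192 bases before it. In the Timm22 window shown, CTGGGAANT begins 43 and ACTACAA 12 bases before the start. A further RefSeq window of Timm22 (chr11:76406893-76407192) holds no CTGGGAANT, and its ACTACAA begins 230 bases before its start. A match of letters is a description and does not show binding. Timm21, Timm13, Timm22, Tomm40 and Tomm70a, 5 of the 25 members, are on the list of direct ZNF143 targets that accompanies the study. Of its 1467 symbols, 1383 are among the 23116 genes of the table. That list was drawn up in part from expression in these libraries and is not independent evidence of their direction. Their log2 fold changes were -1.09, -0.79, -0.10, 0.00 and 0.30 in this order.

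Ratios of 2 members within a library need no scaling between libraries. They were chosen after the values had been seen. Timm21 over Timm23 was 0.791, 0.699 and 0.781 in Znf143 f/f and 0.267, 0.331 and 0.319 in Znf143 -/- libraries. Timm21 over Timm50 went from 0.539 ± 0.0151 to 0.250 ± 0.0220 (SD, n = 3 each). Relative to these 2 subunits, Timm21 was lower in each Znf143 -/- library than in any control, with the limit that part of the Timm23 sequence recurs in other genes. Its ratio to the remaining subunits was not computed. Timm13 over Timm8b was 0.686, 0.594 and 0.619 in Znf143 f/f and 0.326, 0.404 and 0.384 in Znf143 -/- libraries. Both genes were high in the same 2 libraries. Timm13 over Timm8a1 went from 13.9 ± 1.91 to 6.88 ± 1.75 (SD, n = 3 each). In contrast, Timm17a over Timm17b (0.265 ± 0.0155 and 0.284 ± 0.00556), Timm9 over Timm10 (0.166 ± 0.0246 and 0.154 ± 0.0150) and Tomm22 over Tomm40 (3.98 ± 0.494 and 4.05 ± 0.419) overlapped between genotypes, as did Tomm70a over Tomm20 (0.816 ± 0.197 and 0.928 ± 0.225; SD, n = 3 each). For 3 against 3 libraries the exact permutation test cannot go below p = 0.1.

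**Figure D3:**
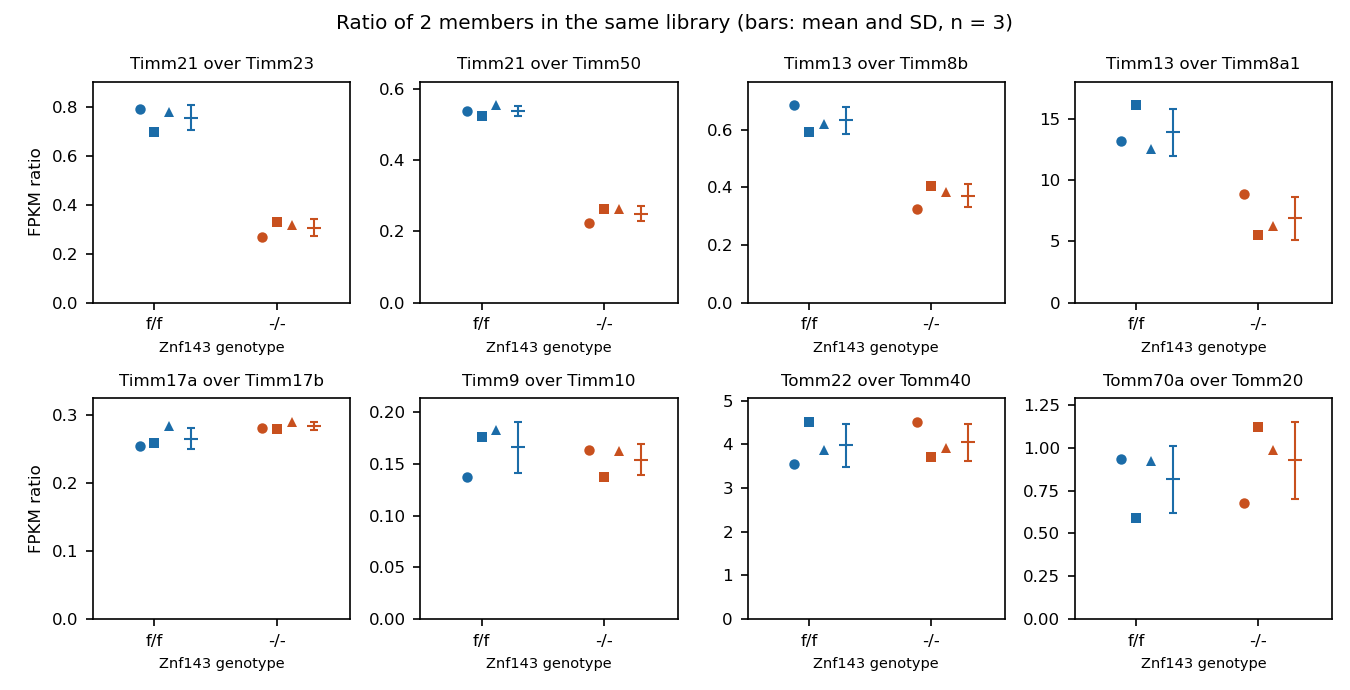
FPKM ratio of 2 members in the same library on axes that start at 0, for 3 Znf143 f/f (blue) and 3 Znf143 -/- libraries (orange), with the mean and SD beside the points. The ratios with Timm21 or Timm13 on top separate the genotypes (Timm21 over Timm23 at 0.699 to 0.791 against 0.267 to 0.331), and the other 4 overlap.

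Apart from the Timm and Tomm genes, 27 genes of the import route were examined (the sorting machinery of the outer membrane, the disulfide relay, motor chaperones, processing peptidases and insertases), all of them in the table. Of these, 1 was called higher and 0 lower, and 4 had an unadjusted p below 0.05, against 5.98% and 24.2% of all genes tested, so neither share exceeds the background. Their median log2 fold change was 0.12. Cox18, an inner membrane insertase that places the end of the mitochondrially encoded Cox2 across the membrane, rose. It was at 18.2, 20.0 and 18.1 FPKM in Znf143 f/f and at 30.1, 29.7 and 30.9 FPKM in Znf143 -/- libraries. The gene lies on chromosome 5 of GRCm38 from 90214724 to 90224001. Both groups were tight and far apart, with a log2 fold change of 0.69 (standard error 0.0782, 95% interval 0.50 to 0.88, adjusted p = 0.00679 from limma) from 1884 to 4865 fragments. Its adjusted p was 0.0518 without Znf143 f/f replicate 3, 0.0582 without Znf143 -/- replicate 3 and 0.237 with near-identical libraries averaged (limma), at log2 fold changes of 0.66, 0.67 and 0.66.

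The next 2 by unadjusted p were Samm50, the channel that inserts barrel proteins such as Tomm40 into the outer membrane, and Mtx2, a partner of Samm50. Samm50 was at 106, 120 and 107 FPKM in Znf143 f/f and at 130, 143 and 146 FPKM in Znf143 -/- libraries, without overlap (log2 fold change 0.33, 95% interval 0.11 to 0.56, adjusted p = 0.0935 from limma). Mtx2 was at 36.0 ± 0.704 and 41.4 ± 2.47 FPKM (SD, n = 3 each), with a log2 fold change of 0.20 and an adjusted p of 0.180 (limma). In all, 4 of the 27 genes (Samm50, Mtx2, Mipep and Cox18) had every Znf143 -/- library above every Znf143 f/f library, and 1 (Mtx3) had every one below, against 15.4% and 15.3% of all genes tested.

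**Figure D4:**
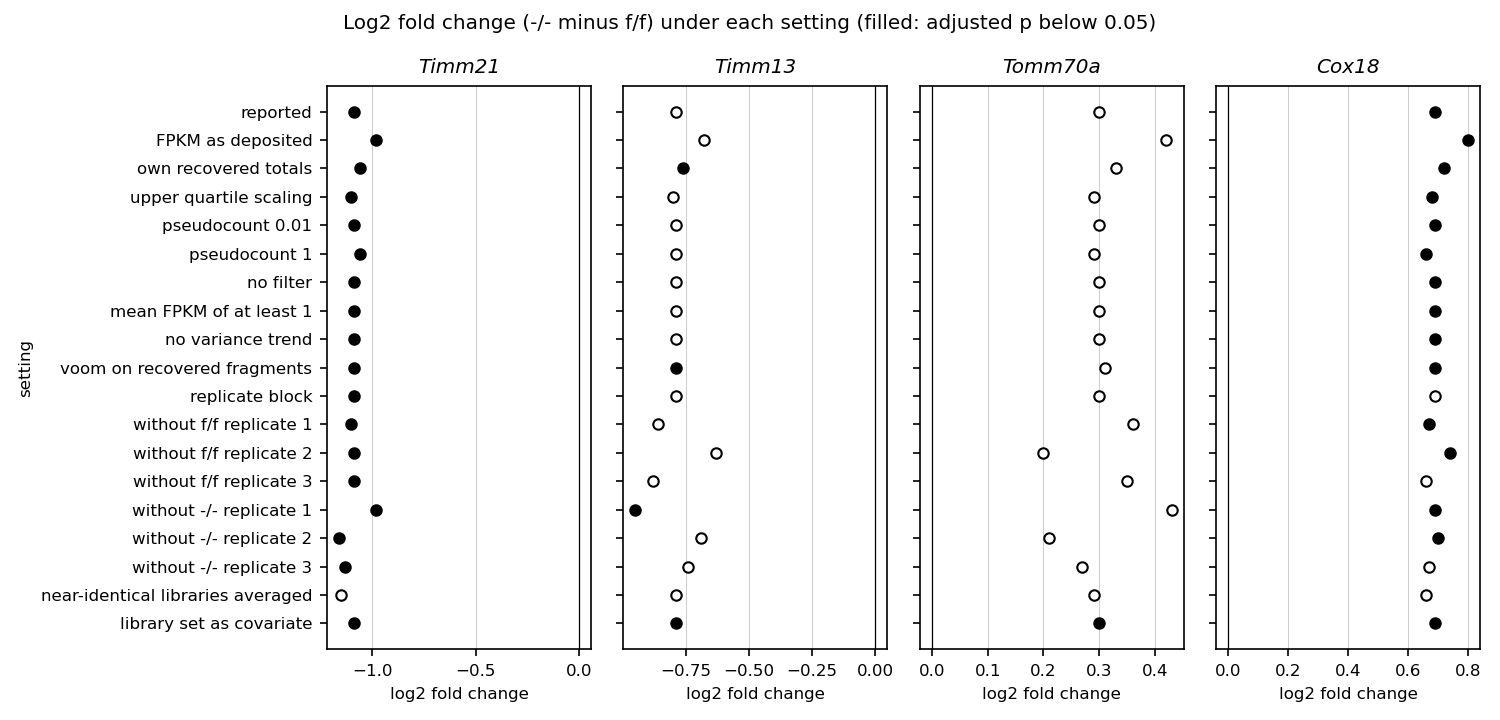
Log2 fold change (Znf143 -/- minus Znf143 f/f) of Timm21, Timm13, Tomm70a and Cox18 as reported and under 18 alternative settings, with filled points where the adjusted p is below 0.05. Timm21 stays between -1.16 and -0.98 and is open only when near-identical libraries are averaged, whereas Timm13 (-0.95 to -0.63) is filled in 4 of 18 alternatives.

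Because 2 libraries of each genotype were nearly identical over all genes, the spread of many members within a genotype came from 1 library in each. This is not particular to the members. Replicate 2 of Znf143 f/f and replicate 1 of Znf143 -/- are the libraries outside the near-identical pairs. For the 22 members with a mean of at least 1 FPKM, the log2 difference between Znf143 f/f replicate 2 and its 2 group mates and that between Znf143 -/- replicate 1 and its 2 group mates had a Pearson correlation of 0.920 across genes, which are not independent replicates. The same correlation was 0.0882 over all 19293 genes tested, 0.159 over the 12546 genes with a mean of at least 1 FPKM and 0.320 over the 4941 with at least 10 FPKM. By ranks the gap was smaller: the Spearman correlation was 0.905 over the members and 0.214, 0.363 and 0.592 over these sets in this order. The 2 differences had the same sign in 15 of the 22 members (68.2%). Over all genes with a mean of at least 1 FPKM this share was 65.2%, and over those with at least 10 FPKM it was 72.4%. Tomm7 (0.60 and 0.84), Timm8b (0.61 and 0.73), Timm13 (0.47 and 0.46) and Tomm5 (0.42 and 0.37) were higher in both of these libraries. Tomm70a (-0.32 and -0.39) and Timm29 (-0.28 and -0.54) were lower in both. All 5 members listed as shorter than 1200 bases in the table (Timm8b, Timm10, Tomm22, Tomm5 and Tomm7; Tomm22 has 1651 exonic bases in GENCODE release M21) were higher on average in these 2 libraries, by 0.04 to 0.72 on the log2 scale, as were 10 of the 17 longer ones, which ranged from -0.41 to 0.47. Across the 22 members the Spearman correlation of this difference with gene length was -0.330. For Timm21 the pair of differences was 0.01 and -0.33. Its log2 difference between genotypes was -0.98 within the near-identical libraries and -1.32 between the remaining libraries. The labels give no batch, and what sets these 2 libraries apart was not tested.

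**Figure D5:**
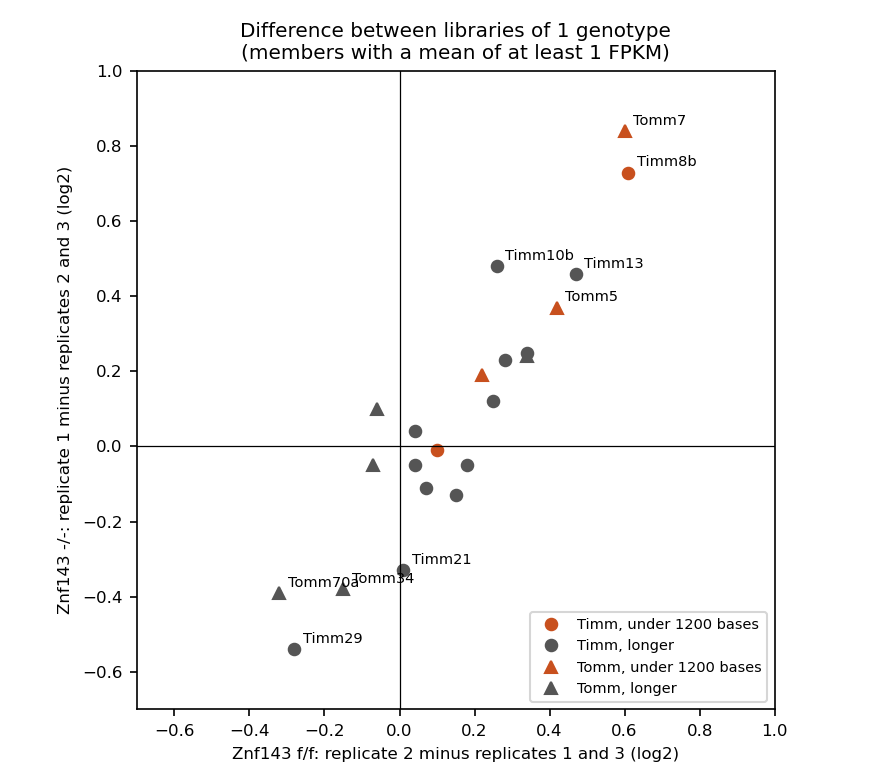
Log2 difference of Znf143 f/f replicate 2 from replicates 1 and 3 (horizontal) against that of Znf143 -/- replicate 1 from replicates 2 and 3 (vertical), 1 point for each of the 22 members with a mean of at least 1 FPKM, with members under 1200 bases in orange. The points run along the diagonal from Timm29 (-0.28 and -0.54) to Tomm7 (0.60 and 0.84), and Timm21 lies off it at 0.01 and -0.33.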

How the data were processed

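Reads of the unstranded SMART-Seq libraries were processed by the authors with TrimGalore, STAR (on GRCm38) and FeatureCounts. They deposited FPKM per gene and library with columns of their own comparison, which were not used. FPKM times gene length gave whole fragments for all but 19 of 138696 values (tolerance 0.05). The FPKM of Znf143 -/- replicate 3 used 48378188 fragments as divisor, as replicate 2 did, although 57895793 fragments lay on its genes. FPKM were therefore divided by median-of-ratios factors, and log2(FPKM + 0.1) was tested with limma 3.58.1 in R 4.3.3 (variance trend, no covariate) for genes with a mean of at least 0.1. The fit was tested on simulated data. Each FPKM is reported with its fragment range where low; 3 fragments on 1 kb equal 0.0516 to 0.0784 FPKM, for counting error only. Whether replicate numbers pair the libraries could not be told. Correlations of deviations were -0.10, -0.09 and 0.04 for same-numbered libraries and -0.04 to 0.10 for the others, so no pairing stood out. Members with an adjusted p below 0.05, the extremes of each family and the 3 lowest p of other import genes were named. Members, gene lists and motifs were chosen with earlier results of these data known. Annotation was GENCODE M21. Protein sequences, ChIP-seq and HiC were not analysed here. One marker list is not reported here.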

Additional observations from a re-analysis of the deposited data

How the results depend on the processing

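The adjusted p of Timm21 stayed below 0.05 in 17 of 18 alternatives (log2 fold change -1.16 to -0.98) and was lost with near-identical libraries averaged, a fit of 2 against 2 samples, which left 0 Timm genes and 0 other import genes called (Cox18 at 0.66). The count of Timm genes called was 2, with Timm13 added, with FPKM divided by each library's own recovered total, with voom on recovered fragments and with the library division as a covariate, and it was 1 to 2 with each library left out (2 without Znf143 -/- replicate 1). The Tomm count was 0 except for 1 (Tomm70a) with the library division as a covariate, and it was 0 with each library left out. Of the other import genes, 0 to 5 were called with each library left out (0 without Znf143 f/f replicate 3 or without Znf143 -/- replicate 3, 2 without Znf143 f/f replicate 2 and 5 without Znf143 -/- replicate 1), and 4 with the library division as a covariate. With the replicate number as a block, 0 other import genes were called (Cox18 at 0.69, adjusted p = 0.0722 from limma). Timm21 remained called, and the calls over all genes went from 1154 to 191. Whether the replicate numbers follow the pairs of littermates could not be told. Of the medians, that of the Timm genes moved to 0.13 with FPKM as deposited, as that of all genes moved to 0.11, and the share of calls that were higher went from 50.1% to 63.5%. Of 447 values of single members under the alternatives, 434 stayed within the replicate spread or on the same side of the threshold, 7 moved by more, 5 passed it, 1 lost it and 0 reversed. Over all genes, calls ranged from 223 to 2286 with each library left out, were 47 with near-identical libraries averaged and 3863 with the library division as a covariate. The covariate fit takes much of its error from differences inside the near-identical pairs, so its calls can be too many. Members under 1 FPKM are limited by depth.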
